A study of Mus musculus with 81 samples.

Results

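The endogenous T-cell receptor (TCR) repertoire in the blood of 7 previously cured mice was compared between day 65, 1 day before an EG7.OVA rechallenge, and day 73, 7 days after it. Libraries were chosen by their labelled group and day and paired by the animal code in the label, and every productive (in-frame) TCRβ rearrangement was kept except those encoding the CDR3 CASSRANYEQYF of OT-1. This gave 14 of the 81 libraries of the series and 76626 of its 378297 endogenous productive rearrangements, summed over libraries. The animals were female CD45.1 Pep Boy mice, a congenic C57BL/6 strain. Their first EG7.OVA tumors, from 2e6 injected cells, had reached about 230 mm3 when the mice received 1e6 naïve OT-1 cells and were dosed with mRBC-OVA-4-1BBL-IL-12 (2.5e8 cells), which are mouse red blood cells that carry an OVA peptide on MHC class I together with 4-1BBL and IL-12. EG7.OVA is an OVA-expressing line derived from the mouse T-cell lymphoma EL4, and the rechallenge on day 66 used 2e6 cells in the opposite flank. As the background, 5 age-matched naïve Pep Boy mice without earlier tumor or dosing were bled on the same days. They received 5e5 OT-1 cells on day 65, the day of their first bleed, and EG7.OVA was their first tumor. The naïve mice therefore differ from the cured mice in earlier tumor, dosing, number of OT-1 cells and time since transfer, which cannot be told apart. Blood of the cured mice from days 126 and 136, around a challenge with EL4 on day 127, was used only to follow clones.

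A TCRβ gene is assembled in each developing T cell from V, D and J segments, and bases added or removed at the joints (N insertions are the added ones) make the CDR3, the loop that contacts peptide and MHC, nearly unique to each clone. Daughter cells carry the same rearrangement, so the number of templates of a rearrangement in genomic DNA is read as a guide to the size of that clone. It is not a count of cells. A T-cell response to antigen is carried by a limited number of clones that divide, and clones that divided before can persist as memory cells and divide again. OT-1 cells carry a transgenic TCR for an OVA peptide on MHC class I and all share a single known CDR3, so the remaining sequences report on the host's own T cells. In blood the share of a clone does not separate growth of that clone from loss of others, and T cells per blood volume were not analysed here.

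The rearrangements that carry the clone results are given as the 87-base window read from the V to the J segment, 5′ to 3′, with the CDR3 in capitals up to the codon before its last residue, where the window ends. The transferred OT-1 receptor is shown first, followed by a pair of risen endogenous clones that use the same V segment as OT-1, of which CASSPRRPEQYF was also the largest rise of mouse 3. The endogenous clones with the largest rise in share in the other mice follow.
OT-1, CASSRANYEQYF, TCRBV12-01 and TCRBJ02-07: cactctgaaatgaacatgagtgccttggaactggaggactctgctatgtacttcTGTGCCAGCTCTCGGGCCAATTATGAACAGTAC
Mouse 2, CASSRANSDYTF, TCRBV12-01 and TCRBJ01-02: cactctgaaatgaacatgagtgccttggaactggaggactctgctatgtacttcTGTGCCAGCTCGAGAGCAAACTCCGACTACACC
Mouse 3, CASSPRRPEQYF, TCRBV12-01 and TCRBJ02-07: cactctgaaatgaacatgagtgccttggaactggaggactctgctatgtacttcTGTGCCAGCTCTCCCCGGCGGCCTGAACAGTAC
Mouse 1, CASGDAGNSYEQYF, TCRBV13-02 and TCRBJ02-07: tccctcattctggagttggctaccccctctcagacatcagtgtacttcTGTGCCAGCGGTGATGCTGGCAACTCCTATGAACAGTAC
Mouse 2, TCRBV05-01 and TCRBJ02-07: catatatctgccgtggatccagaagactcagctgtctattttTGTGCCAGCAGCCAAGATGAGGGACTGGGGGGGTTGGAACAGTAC
Mouse 4, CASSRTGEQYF, TCRBV14-01 and TCRBJ02-07: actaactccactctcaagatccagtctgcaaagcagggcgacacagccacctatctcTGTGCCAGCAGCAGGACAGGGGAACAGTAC
Mouse 5, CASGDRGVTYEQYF, TCRBV13-02 and TCRBJ02-07: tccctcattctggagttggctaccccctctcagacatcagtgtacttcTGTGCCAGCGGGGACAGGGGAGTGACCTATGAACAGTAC
Mouse 6, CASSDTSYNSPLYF, TCRBV13-01 and TCRBJ01-06: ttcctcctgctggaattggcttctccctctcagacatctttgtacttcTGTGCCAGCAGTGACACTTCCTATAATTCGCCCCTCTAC
Mouse 7, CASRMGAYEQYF, TCRBV29-01 and TCRBJ02-07: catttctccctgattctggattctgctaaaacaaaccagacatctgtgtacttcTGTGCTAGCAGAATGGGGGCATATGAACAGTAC

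Endogenous templates per library ranged from 7350 to 11991 on day 65 and from 4281 to 8154 on day 73 in cured mice, and from 3184 to 7371 in the naïve libraries. Rearrangements with a single template made up between 68.5% and 76.7% of each cured library's list. The lymphoma's own CDR3, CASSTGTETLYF, had 0 templates in the 14 libraries. The label of the day 73 library of mouse 2 says mouse 1 but gives the animal code of mouse 2, and this library shared 35 rearrangements with the day 65 library of mouse 2 against 5 with that of mouse 1. Mouse 2 had no OT-1 template on either day, whereas OT-1 made up 8.38% to 45.0% of productive templates in the other 6 mice on day 73.

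On day 73 the endogenous repertoire was more clonal, held fewer distinct rearrangements at equal depth and gave more of its templates to the 10 largest clones. All libraries were thinned to 4281 endogenous templates for these measures. Before thinning, day 73 libraries were smaller than day 65 libraries in every cured mouse, and that of mouse 2 held 4281 templates and stayed whole. Whether thinning removes the effect of this difference in depth was not tested. Clonality, which runs from 0 for equally large clones to 1 for a single clone, had a lowest, median and highest value of 0.00544, 0.00825 and 0.0171 on day 65 and of 0.00709, 0.0234 and 0.0422 on day 73. It rose by 0.0127 on average (SD 0.0111, n = 7, higher in 6 of 7 mice; 2-sided exact sign-flip test, p = 0.0312, adjusted p = 0.0312 over the 3 measures). The exception was mouse 3, which went from 0.00825 to 0.00709, and the largest rise was that of mouse 5, from 0.0101 to 0.0422. The values of the days overlap between mice, since mouse 6 already stood at 0.0171 before rechallenge.

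Expected richness, the number of distinct rearrangements in 4281 templates, averaged 3639 before rechallenge (SD 102, n = 7) and 3323 after it (SD 200, n = 7). The mean change was -316 (lower in 6 of 7 mice; exact sign-flip test, p = 0.0312, adjusted p = 0.0312). The change within mice ran from -725 rearrangements in mouse 7 to 109 in mouse 3. Before thinning, the day 65 and day 73 libraries held 11991 and 4693 endogenous templates in mouse 7 and 7350 and 5979 in mouse 3. Richness fell further the smaller the day 73 library of a mouse was relative to its day 65 library. Whether depth accounts for the change in richness was not tested. The 10 largest clones held 1.81% of endogenous templates before rechallenge (SD 1.07, n = 7) and 4.56% after it (SD 2.48, n = 7). This share rose in 7 of 7 mice, by 2.75 percentage points on average (exact sign-flip test, p = 0.0156, which is the smallest p that 7 pairs allow, adjusted p = 0.0312). The rise was 6.25 percentage points in mouse 5 and 0.0939 in mouse 3, so its size varied widely between animals. The largest clone alone rose by 1.30 percentage points, which did not pass the threshold (adjusted p = 0.0781 in the exact sign-flip test).

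**Figure D1:**
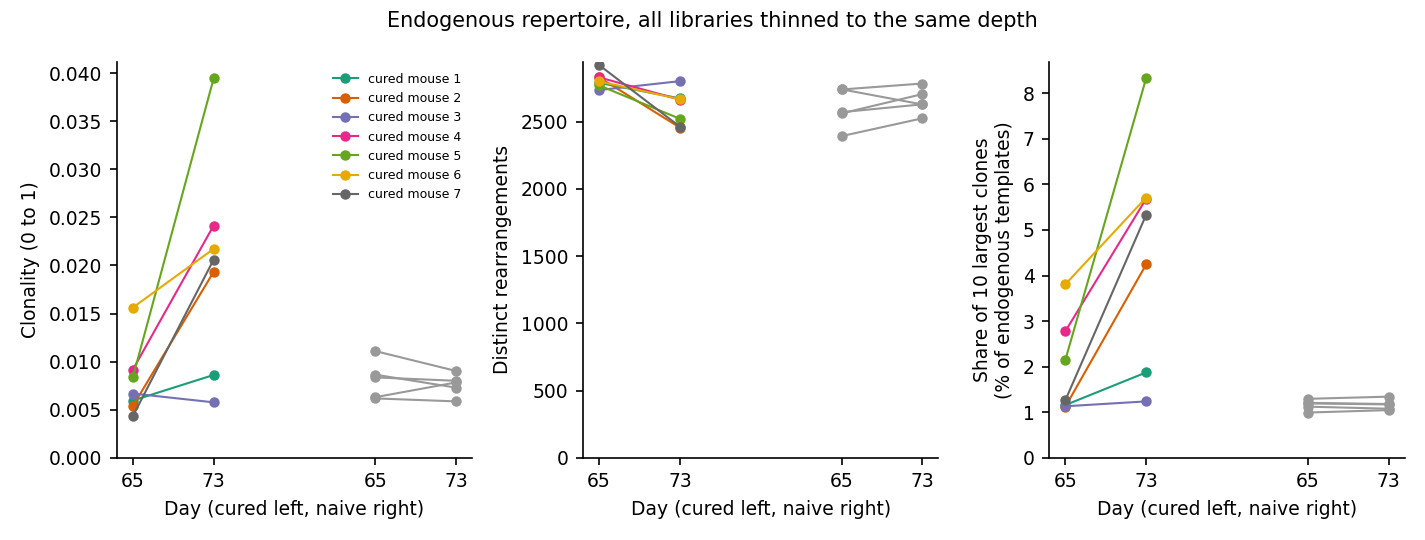
Clonality, number of distinct rearrangements and percent of endogenous templates in the 10 largest clones on days 65 and 73, with a line per mouse (7 cured in color, 5 naïve in gray) and all 24 libraries thinned to 3184 templates. The share of the 10 largest clones rises in all 7 cured mice, while the naïve mice stay between 0.994% and 1.34%.

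Neither clonality nor richness moved in this way in the naïve animals. With all 24 libraries thinned to 3184 templates, clonality changed by 0.0120 ± 0.0107 (SD, n = 7) in cured mice and by -0.00051 ± 0.00136 (SD, n = 5) in naïve mice, a difference of 0.0125 (2-sided exact permutation test over all splits, p = 0.0164, adjusted p = 0.0379 over 4 comparisons of cured with naïve mice). Richness changed by -204 ± 175 (SD, n = 7) in cured mice and by 53.2 ± 103 (SD, n = 5) in naïve mice (exact permutation test, p = 0.0189, adjusted p = 0.0379). The changes overlap between the groups, since the change of cured mouse 3 lay within the range of the naïve mice for both measures. Before thinning, day 73 libraries were smaller than day 65 libraries in every cured mouse. They were larger in every naïve mouse except mouse 1, the only naïve mouse in which richness fell. Group and change in library size therefore cannot be told apart. Without naïve mouse 3 the difference in clonality change was 0.0121 (exact permutation test, p = 0.0515).

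Few rearrangements were seen on both days, and those that were held a larger share of templates than of the list. Between 22 (mouse 3) and 64 (mouse 7) rearrangements were seen on both days, a median of 47, which was 0.417% to 0.785% of the day 65 list and 0.466% to 1.93% of the day 73 list. These shared rearrangements held 2.18% of endogenous templates before rechallenge (SD 1.26, n = 7) and 4.98% after it (SD 2.90, n = 7). The highest day 73 value was 8.80% in mouse 5 and the lowest was 0.987% in mouse 3. A day 73 library shared from 5 to 28 rearrangements with the day 65 library of another cured mouse, with a median of 13 over 42 such pairs, which gives the background between animals. The Morisita-Horn index, a similarity from 0 to 1 that weights clones by their shares, was 0.202 ± 0.235 (SD, n = 7) within a mouse and 0.0017 on average between mice. Among all 5040 matchings of day 73 to day 65 libraries, none had a higher mean than the true one (1-sided exact permutation test, p = 0.000198, the smallest p it can give).

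**Figure D2:**
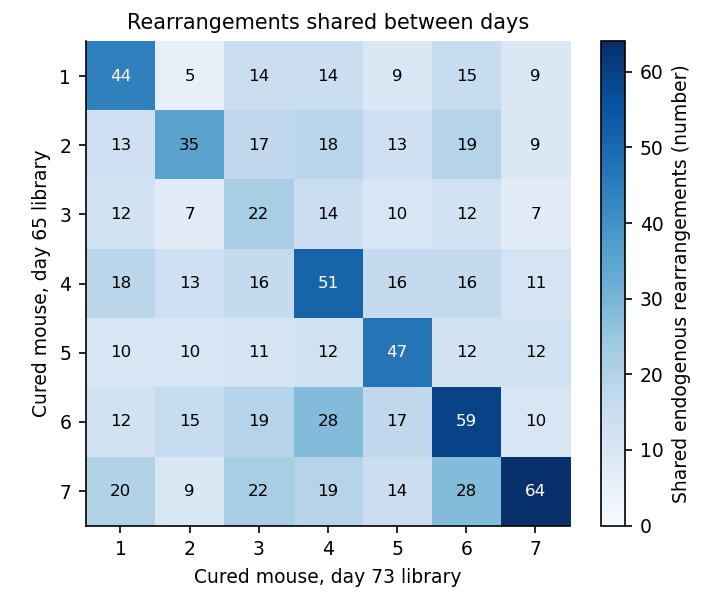
Number of endogenous rearrangements shared between each day 65 library (rows) and each day 73 library (columns) of the 7 cured mice. The diagonal, which pairs libraries of the same animal, runs from 22 to 64 against 5 to 28 elsewhere, and it holds the highest number of every row and column except the day 73 column of mouse 3, where it ties at 22 with mouse 7.

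The within-mouse index ranged from 0.0239 in mouse 2 to 0.657 in mouse 6, whose largest clone on both days was the same rearrangement of TCRBV14-01 and TCRBJ02-07. Naïve animals had an index of 0.00713 ± 0.00208 (SD, n = 5), below all 7 cured values. The difference in means was 0.195 (2-sided exact permutation test, p = 0.0821, adjusted p = 0.109). It passed the threshold with the Jaccard index at equal depth, which counts rearrangements without weighting them by size (difference 0.00175; exact permutation test, p = 0.00631). Of the 10 largest rearrangements of day 65, between 3 and 9 were seen again on day 73 in a cured mouse (48 of 70 in all) and 0 or 1 in a naïve mouse (3 of 50). This count was chosen after its values were seen and has no test. The largest rearrangement of a naïve mouse on day 65 had only 6 to 10 templates, against 14 to 287 in cured mice.

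Between the libraries of each cured mouse, 1 or more endogenous clones took a larger share on day 73. A clone, here a nucleotide rearrangement, was tested against all other endogenous productive templates of the same mouse when it had at least 5 templates in the 2 libraries together. Of 193 such rearrangements in the 7 mice, 51 rose (26.4%) and 2 fell (1.04%) at an adjusted p under 0.05 (2-sided Fisher's exact test within the mouse, Benjamini-Hochberg adjustment). Each of these p values compares 1 library per day and covers counting error only. The test takes each template as an independent count, although templates per rearrangement differed between J segments. In the day 65 library of mouse 1, TCRBJ02-07 had 2227 templates over 1082 rearrangements and TCRBJ01-01 had 656 over 647. Calls that rest on few templates may therefore rest on fewer cells. Against all productive templates, OT-1 included, 32 rose and 7 fell. Mice 1 to 7 had 3, 5, 1, 9, 8, 12 and 13 risen clones of 21, 16, 16, 31, 21, 50 and 38 tested. More clones rose than fell in 7 of 7 mice, by 7 clones on average (exact sign-flip test, p = 0.0156, the smallest that 7 pairs allow). Day 73 libraries were smaller than day 65 libraries in every cured mouse. A clone seen only on day 73 therefore passes with fewer templates than a clone seen only on day 65. In mouse 4, a clone with 0 and then 5 templates was called, and a clone with 5 and then 0 was not. Since 31 of the 51 risen clones had 0 templates on day 65, the sign-flip test cannot separate a rise from this difference. Among clones with templates on both days, mouse 3 had 0 risen and 0 fallen. With the libraries of a mouse thinned to the same total, a median of 24.5 clones rose and 1 fell over 20 draws, and the balance was again positive in 7 of 7 mice (exact sign-flip test, p = 0.0156). This thins the day 65 library only, which takes some of its clones below the minimum of 5 templates. Whether it removes the effect of unequal depth was not tested.

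Among naïve animals 8 of 51 tested rearrangements rose (15.7%) and 11 fell (21.6%), a balance of -0.6 clones per mouse (exact sign-flip test, p = 0.5). The percent of tested rearrangements that rose was 25.3 ± 11.4 (SD, n = 7) in cured and 18.1 ± 12.4 (SD, n = 5) in naïve mice, a difference of 7.23 percentage points that did not pass the threshold (exact permutation test, p = 0.323, adjusted p = 0.323). The size of this difference depended on the denominator and depth, at 0.836 points against all productive templates (exact permutation test, p = 0.909) and 16.8 points with all 24 libraries thinned to the smallest (exact permutation test, p = 0.0871). All 19 called rearrangements of naïve mice had 0 templates on one of the days. In cured mice 31 of the 51 risen clones, among them the single one of mouse 3, had 0 templates on day 65. The other 20 had templates on both days, of 111 tested rearrangements seen on both days in cured mice, against 0 of 18 in naïve mice. This split was chosen after the values were seen and has no test.

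**Figure D3:**
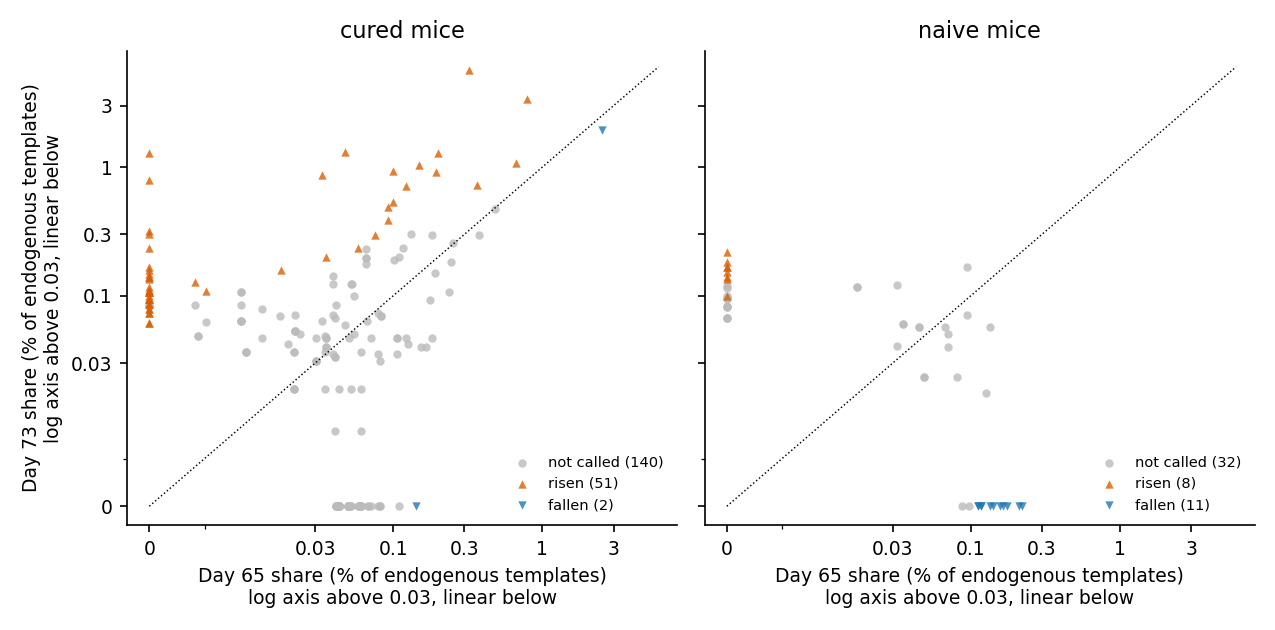
Share of endogenous templates on day 73 against day 65 for each tested rearrangement of cured (left, 193) and naïve (right, 51) mice, with risen clones as upward and fallen clones as downward triangles and equal shares on the dotted line. Called clones of naïve mice lie on the axes, at 0 on one of the days, whereas 20 risen clones of cured mice lie off them.

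The largest rise was that of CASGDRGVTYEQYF in mouse 5, which went from 27 templates, 0.322% of endogenous templates (95% Wilson interval 0.221% to 0.468%), to 283 templates and 5.65% (5.04% to 6.32%). This is a 17.6-fold higher share (Fisher's exact test, adjusted p = 4.36e-89). In mouse 4, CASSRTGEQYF was the largest endogenous clone on both days, with 77 templates (0.784%) before and 215 templates (3.37%) after rechallenge, a 4.30-fold higher share (adjusted p = 2.21e-31). Both clones were therefore already detected before rechallenge, and both were the largest endogenous clone of their animal after it.

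Mouse 2, in which OT-1 was not detected, had 5 risen endogenous clones that together went from 0.0472% to 3.64% of endogenous templates. Its clone of TCRBV05-01 and TCRBJ02-07, printed above, had 0 templates on day 65 and 55 templates (1.28%) on day 73. With 0 templates set to a floor of 3 in the library (0.0354%), here and for the other clones absent on day 65, this was 36.3-fold above the floor (adjusted p = 1.09e-25). Such folds leave out counting error on day 73 and are not lower limits. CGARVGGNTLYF, named after its values were seen, went from 4 to 56 templates (adjusted p = 1.82e-21). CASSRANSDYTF, also named after its values were seen, went from 0 to 34 templates, 22.4-fold above the floor (adjusted p = 3.77e-16). Its first 7 residues and its V segment are those of OT-1, while its J segment is another. Its last residues, ANSDYTF, also end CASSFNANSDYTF of mouse 3, which uses the same J segment and was not called. Its window differs from the main OT-1 rearrangement at 12 of 87 bases. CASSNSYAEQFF, a risen clone of naïve mouse 2 with the same V segment, differs from OT-1 at 11 bases.

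Mouse 3 had the fewest risen clones. Its single one, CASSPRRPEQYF, rose from 0 to 10 templates (0.167%, interval 0.0909% to 0.308%, 4.10-fold above the floor, adjusted p = 0.00526). It is the one risen clone of the 51 that combines the V and the J segment of OT-1, and its window differs from OT-1 at 10 bases. The same segments were combined in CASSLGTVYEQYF of mouse 2, which had 15 and 4 templates and was not called. No risen clone had a CDR3 within 2 substitutions of that of OT-1. Besides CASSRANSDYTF and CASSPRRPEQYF, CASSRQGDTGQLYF of mouse 6 (0 to 9 templates) and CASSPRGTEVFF of mouse 7 (1 to 6 templates) rose and used TCRBV12-01, the V segment of OT-1.

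In mouse 6, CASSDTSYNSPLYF rose from 23 to 104 templates, a 6.35-fold higher share (adjusted p = 5.88e-19). In mouse 7, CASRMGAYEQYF rose from 18 to 49 templates, a 6.96-fold higher share (adjusted p = 3.22e-13). Mouse 7 had the most risen clones, and together they went from 0.617% to 5.41% of endogenous templates. In mouse 1 the largest rise was smaller, with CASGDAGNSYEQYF at 7 templates before and 22 after rechallenge (4.23-fold, adjusted p = 0.00963). The same nucleotide sequence was also among the risen clones of mouse 5, from 0 to 8 templates (adjusted p = 0.00266). It was the single CDR3 that rose in more than 1 mouse.

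The largest endogenous clone of day 65 behaved differently from mouse to mouse. In mice 4 and 5 it rose, and the clone of mouse 5, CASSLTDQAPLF, held 56 and 54 templates in libraries of unequal depth (0.667% and 1.08%, adjusted p = 0.0305). In mouse 6 it fell, with its TCRBV14-01 clone going from 287 templates (2.51%) to 158 templates (1.94%; adjusted p = 0.039). In mice 1, 2, 3 and 7 it was not called. The day 65 and day 73 templates of these clones were 18 and 6 in mouse 1, 15 and 4 in mouse 2, 14 and 9 in mouse 3 and 22 and 14 in mouse 7. The other fallen clone, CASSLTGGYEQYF of mouse 5, went from 12 to 0 templates (adjusted p = 0.0201).

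Together the risen clones of a mouse held 0.497% of endogenous templates before rechallenge (SD 0.478, n = 7) and 3.73% after it (SD 2.67, n = 7). These values chose the clones and carry no test. On the days not used to choose them they held 1.22% (day 126, SD 1.31, n = 7) and 1.17% (day 136, SD 0.946, n = 7). On day 126 the summed share was above that of day 65 and below that of day 73 in 7 of 7 mice. This order can follow from the choice itself, since the clones were chosen as lower on day 65 and higher on day 73. Mouse 5 had the highest share on day 73, at 7.78%, and mouse 7 had the highest on day 126, at 3.83%, to which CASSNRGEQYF, named after its values were seen, contributed 274 templates after 11 on day 65 and 23 on day 73.

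**Figure D4:**
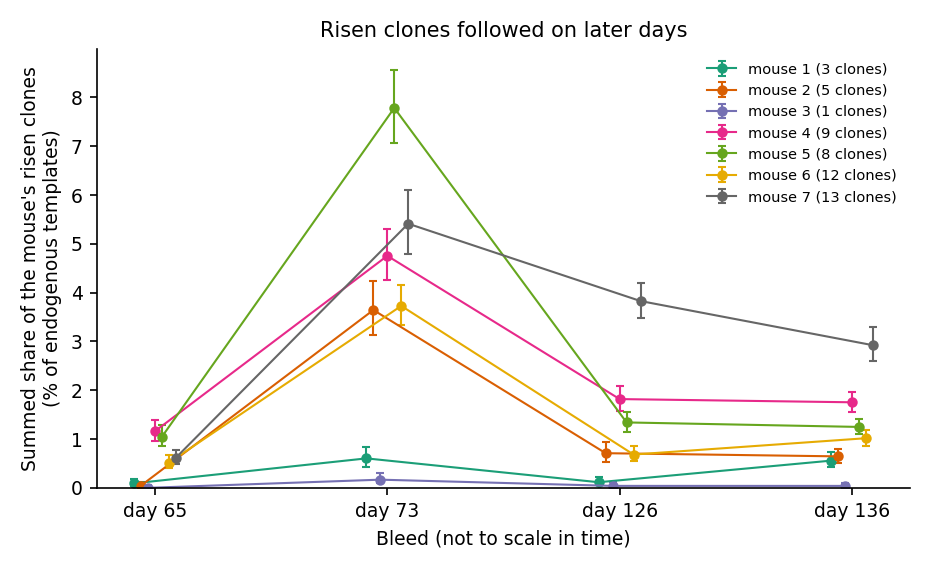
Summed share of each cured mouse's risen clones in percent of endogenous templates on days 65, 73, 126 and 136, with 95% Wilson intervals as bars that cover counting error only. Clones were chosen on days 65 and 73. Mouse 7 stands highest on the later days, at 3.83% and 2.92%.

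Of the 20 risen clones with templates on day 65, 19 were seen again on day 126 or 136. Of the 31 with no template on day 65, 15 were, including all 8 of those that had 10 or more templates on day 73 and 7 of the 23 that had fewer. Among tested rearrangements that were not called, 72 of 140 were seen on one of these days. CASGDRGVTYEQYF of mouse 5 had 105 and 174 templates on days 126 and 136, and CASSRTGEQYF of mouse 4 had 133 and 209. The TCRBV05-01 clone of mouse 2 had 7 and 25, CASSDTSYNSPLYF of mouse 6 had 39 and 29, and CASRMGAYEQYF of mouse 7 had 50 and 51.

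A choice that uses neither day of the comparison was added with the results in view. Day 126 follows the rechallenge and lies nearer in time to day 73 than to day 65. Clones that are large on day 126 can therefore hold more on day 73 than on day 65 through the choice itself, which the test cannot separate from a rise after rechallenge. The 161 rearrangements with at least 5 templates on day 126 held 1.35% of endogenous templates before rechallenge (SD 1.17, n = 7) and 4.09% after it (SD 2.38, n = 7). Their share rose in 7 of 7 mice, by 2.73 percentage points on average (exact sign-flip test, p = 0.0156). The smallest rise was 0.218 percentage points in mouse 3 and the largest 5.99 in mouse 5. In the same way, the 101 rearrangements with at least 5 templates on day 65 held 3.47% (day 73, SD 2.79, n = 7) and 1.76% (day 126, SD 1.53, n = 7), lower in 7 of 7 mice (exact sign-flip test, p = 0.0156). Day 65 likewise lies nearer to day 73 than to day 126, so this direction can also follow from the choice.

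The rise of endogenous clones was set beside the rise of OT-1 over the 7 mice. The summed day 73 share of risen clones was 0.603%, 3.64%, 0.167%, 4.75%, 7.78%, 3.73% and 5.41% of endogenous templates in mice 1 to 7. The OT-1 share of productive templates on day 73 was 32.3%, 0%, 25.3%, 33.8%, 24.02%, 8.38% and 45.0% in the same order. Mice 1 and 3, at 32.3% and 25.3% OT-1, had the lowest endogenous values. Against the change in OT-1 share, the summed share of risen clones gave Pearson's r = 0.132 (exact permutation p = 0.783) and Spearman's rho = 0.429 (exact permutation p = 0.354), and the change in clonality gave r = 0.131 (exact permutation p = 0.779) and rho = 0.393 (exact permutation p = 0.396). After adjustment over these 2 relations p was 0.783 for either r and 0.396 for either rho. Without mice 2 and 7, which lay farthest from the median OT-1 change, r was -0.0362 and 0.162. No relation was detectable with 7 mice.

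The use of V and J segments in the endogenous repertoire changed little. Shares were tested with the templates of each segment against the endogenous total (edgeR quasi-likelihood test with the mouse as a block). Of 23 V segments tested 1 was called (4.35%), and of 12 J segments 1 was called (8.33%). TCRBV30-01, a rarely used segment, fell from 0.311% ± 0.0834 (SD, n = 7) to 0.211% ± 0.0332 (SD, n = 7) of endogenous templates, lower in 7 of 7 mice (log2 fold change -0.57, SE 0.15, edgeR adjusted p = 0.0321). TCRBJ02-01 fell from 8.89% ± 0.289 (SD, n = 7) to 8.31% ± 0.468 (SD, n = 7), also in 7 of 7 mice (log2 fold change -0.10, SE 0.03, edgeR adjusted p = 0.0279). The mean shares of both segments were lower on day 73 in naïve mice too. They were 0.236% on day 65 and 0.200% on day 73 for TCRBV30-01, and 9.48% and 8.49% for TCRBJ02-01. Neither call was kept by DESeq2, by the exact sign-flip test of shares or when each distinct rearrangement was counted once.

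Segments of the most expanded clones showed no called shift as a whole. TCRBV13-02, used by the largest risen clones of mice 1 and 5, had a mean share of 10.6% on day 65 and 11.3% on day 73, higher in 5 of 7 mice (edgeR adjusted p = 0.594). TCRBV12-01, the V segment of OT-1, had 4.70% and 4.51% (edgeR adjusted p = 0.808). TCRBJ02-07, the J segment of OT-1, was the most used J segment, at 29.7% and 29.2% (edgeR adjusted p = 0.463).

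**Figure D5:**
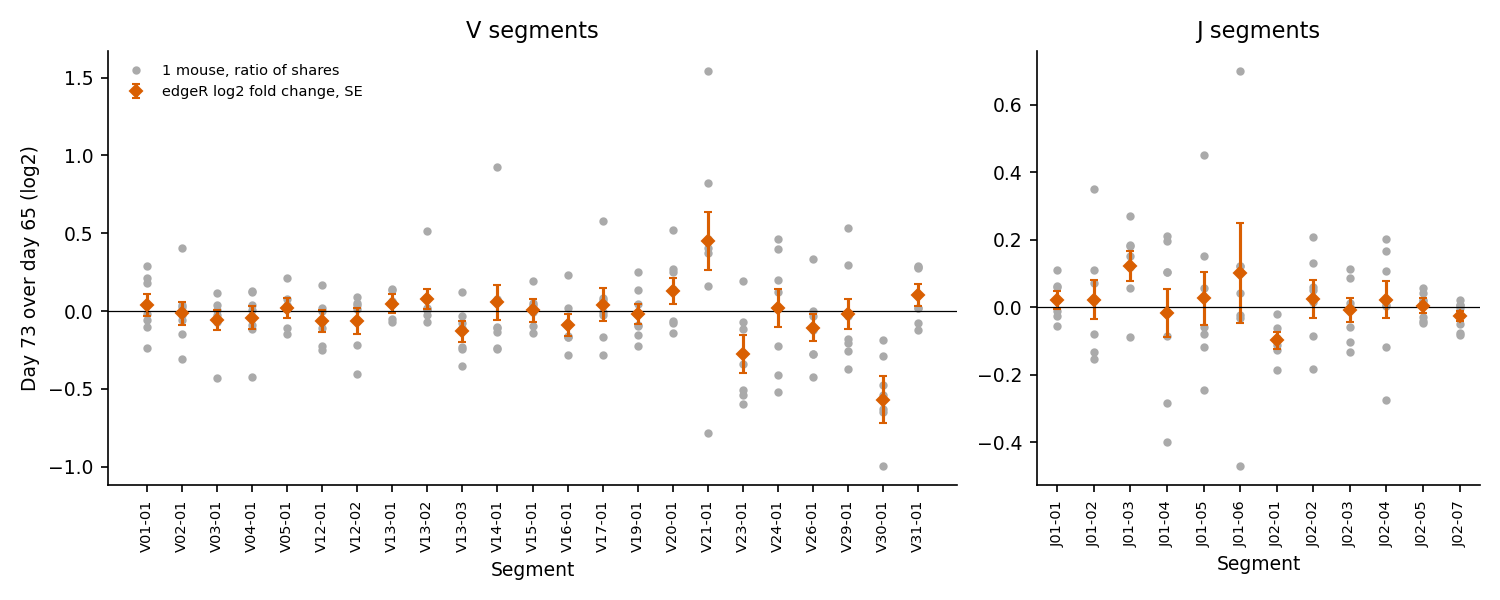
Change in segment use from day 65 to day 73 on the log2 scale for 23 V and 12 J segments of the endogenous repertoire of cured mice, with the edgeR estimate and its standard error as a diamond with a bar and the ratio of shares in each mouse as a gray point. TCRBV30-01 and TCRBJ02-01 lie below 0 in all 7 mice.

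The 51 clones used 18 V segments, against 20 in the 140 tested rearrangements that were not called. TCRBV31-01 led with 7 clones (13.7%), against 4.29% of those not called and 6.48% of all 29318 day 73 rearrangements. Most of the latter have a single template. TCRBV12-01 was used by 4 of the 51 risen clones, 5 of the 140 not called and 1314 of the 29318. TCRBJ02-07 was used by 25 of the 51 risen clones (49.02%), against 57.1% of the rearrangements not called and 18.3% of all. The high share of this segment was thus common to tested rearrangements and not to the risen ones alone. The minimum of 5 templates can favor a segment with more templates per rearrangement, which was not tested. TCRBJ01-03 was used by 7 risen clones (13.7%), against 3.57% of the rearrangements not called and 5.56% of all. The median CDR3 was 39 bases long with 3 N insertions in risen clones, 42 bases with 2 in those not called and 42 bases with 3 over all day 73 rearrangements. A rearrangement without N insertions was found in 2 of the 51 risen clones (3.92%) and in 21 of the 140 not called (15%). These shares are descriptions of clones chosen on the same libraries and have no test.

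Most risen clones were found in a single animal. The same nucleotide sequence was present in a library of another of the 12 cured and naïve mice for 10 of the 51 risen clones (19.6%) and for 23 of the 140 not called (16.4%). At the level of the CDR3 amino acid sequence these numbers were 26 (51.0%) and 77 (55.0%). Template-weighted mean CDR3 length was 41.4 bases on both days (change -0.0266 bases, higher in 3 of 7 mice; exact sign-flip test, p = 0.609, adjusted p = 0.914 over 3 features). The mean number of N insertions was 3.40 before and 3.41 after rechallenge (exact sign-flip test, p = 0.969, adjusted p = 0.969). Non-productive rearrangements fell from 32.2% ± 0.806 (SD, n = 7) to 26.9% ± 3.25 (SD, n = 7) of all templates, OT-1 included, in 7 of 7 mice (exact sign-flip test, p = 0.0156, adjusted p = 0.0469). Of templates other than OT-1, a denominator added after the data were examined, they made up 32.6% ± 0.741 (SD, n = 7) and 32.9% ± 1.59 (SD, n = 7), lower in 4 of 7 mice (exact sign-flip test, p = 0.75).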

How the data were processed

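The authors amplified TCRβ CDR3 regions from genomic DNA of blood (50 to 60 µL) in the immunoSEQ multiplex PCR and, per the file headers, deposited a raw count of templates for each nucleotide rearrangement, without normalization. Template counts of productive rearrangements other than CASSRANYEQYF were analysed here. The deposited fractions were not used. Clonality is 1 minus normalized Shannon entropy over 100 thinning draws, and richness is the exact expectation. Intervals and floors (3 templates) cover counting error only, since PCR templates are not independent molecules. Day 73 and day 65 libraries come from the same animal, so mice were paired or blocked. Segments needed a mean of at least 10 templates and were tested with edgeR 4.0.16 in R 4.3.3 on the endogenous total. DESeq2 1.42.0 was an alternative, and other statistics used Python 3.11.15 and SciPy 1.17.1. The procedures were tested on simulated data. Named clones are the largest rise and the largest day 65 clone of each mouse, CDR3s that rose in at least 2 mice, risen clones with the V and J of OT-1 or a CDR3 within 2 substitutions of it, and called segments. The clones, lists and tests were chosen with earlier results of these data known.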

Additional observations from a re-analysis of the deposited data

Results flagged for a closer look

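The change in clonality from day 65 to day 73 differed between cured and naïve mice by 0.0125 (exact permutation test, p = 0.0164), with a rise in 6 of 7 cured and 1 of 5 naïve mice. The change in richness differed by -257 rearrangements at 3184 templates (exact permutation test, p = 0.0189), with a fall in 6 of 7 cured mice and a rise in 4 of 5 naïve mice. Earlier tumor, dosing, OT-1 transfer and the change in library size between the days cannot be told apart between the groups. In none of the 37 sets of values checked, each from 1 group of 5 or 7 mice, did a mouse lie far from the rest by Dixon's 95% criterion, which flags about 1 set in 20 by chance.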

How the results depend on the processing

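Of 163 recomputed values 96 were judged the same, 35 were counts that moved, 23 lost the threshold, 7 gained it and 2 reversed. The reversed values were the non-productive percent and the correlation of risen clones with OT-1 change, which was -0.0362 without 2 mice. The non-productive percent changed by -5.27 percentage points of all templates but by 0.295 of templates other than OT-1. With each rearrangement counted once it changed by -0.365. Leaving out a mouse gave changes of 0.00951 to 0.0151 in clonality, -387 to -248 in richness and 2.16 to 3.19 percentage points in the 10 largest clones, and the exact sign-flip p, adjusted over the 3 measures, was 0.0312 without mouse 3, in which clonality and richness moved the other way, and 0.0625 without any other mouse. The largest clone alone rose by 1.30 percentage points. Without the replicate block, comparing the days as separate groups, these 3 calls did not change, and no V or J segment was called (0). By mouse number as a replicate block over 5 numbers of different animals, cured mice differed from naïve mice by 0.0129 in clonality change and by -221 in richness change (exact sign-flip test, p = 0.0625 for both, the smallest that 5 pairs allow). Leaving out a mouse moved the first to between 0.00935 and 0.0147 and the overlap difference to between 0.12 and 0.225, which passed the threshold without cured mouse 1, 2, 3, 4 or 6. With the Jaccard index it was 0.00175.

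Risen and fallen clones numbered 32 and 7 against all productive templates, 26 and 2 with at least 10 templates, 16 and 0 without a minimum, 29 and 0 at an adjusted p under 0.01, 24.5 and 1 at equal totals, and 20 and 1 with templates on both days. As a percent of all tested rearrangements, risen clones with templates on both days differed from naïve mice by 9.54 (0 in each naïve mouse, which prompted the split, so no test is given). Clones defined by CDR3 gave 4 fallen. Leaving out a mouse gave 1 or 2 fallen clones, 0 or 1 V segment and 0 to 2 J segments. TCRBV30-01 was lost without mouse 3, 4, 6 or 7, and TCRBJ02-01 without mouse 2, 3, 4, 5 or 7. Both were also lost with DESeq2, distinct rearrangements, the sign-flip test and no filter (0 called), and TCRBJ02-01 with TMM scaling (0 called). DESeq2 found 2 V and 0 J segments at an unadjusted p under 0.05. The causes were not tested. In the smallest library, of 4281 templates, 5 templates are the fewest that could be tested for a clone seen only there.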
